A study of Owenia fusiformis with 11 samples.

Results

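Chromatin accessibility changed between axial elongation and the mature larva of the annelid Owenia fusiformis at 6497 of 61869 consensus peaks (10.5%), of which 3662 opened and 2835 closed. The peaks came from an ATAC-seq table of 63732 consensus peaks, from which the 1863 (2.92%) listed at 0 in all 8 libraries of 4 stages were dropped, leaving 61869 for description. Elongation embryos were taken at 13 h post-fertilization and mature mitraria larvae at 27 h, and the gastrula (9 h) and the competent larva (3 weeks) were used to set the change in time. Each stage had 2 libraries, each made from around 50000 cells of pooled whole animals (about 500 gastrulae, 300 elongation embryos, 150 mature larvae or 40 competent larvae), and the labels give no treatment or genotype. A library of whole animals does not tell a smaller number of cells with an open site from less opening per cell. The study describes the libraries of a stage as biological replicates, without saying whether they came from separate fertilizations, and the p-values measure only the spread between these libraries. The 3 RNA-seq libraries of the series are not analysed here.

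In ATAC-seq, the Tn5 transposase cuts DNA that is not wrapped in nucleosomes or covered by proteins, so that read density over a region rises with its accessibility. Regions that open and close during development are often promoters and enhancers, the DNA elements to which transcription factors bind. The mitraria is the planktonic, feeding larva of Owenia, with a large ciliary band and long chaetae. It forms from the elongating embryo and builds the segmented trunk of the adult only late, in the competent larva that is ready for metamorphosis. The interval from elongation to the mature larva thus covers the assembly of a functional larval body. Peaks are given here by the identifiers of the deposited table and by 1-based positions on its scaffolds, whose build is not given in the sources used here. No gene, sequence or motif is given for them, because no genome or gene annotation of that build was used here.

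Accessibility is given as normalized signal per peak, that is, reads per peak scaled between libraries by the authors. Reads in kept peaks, recovered from these values, numbered 7997171 to 44122721 per library. The elongation libraries held 19288142 and 44122721 and the mature larva libraries 12513799 and 15363704, so that the median peak held 192 and 446 reads at elongation and 115 and 147 in the mature larva. The scaling sets the libraries to a common level, so the medians of all kept peaks (180.1 and 174 at elongation, 171 and 176 in mature larvae) and their median log2 change of -0.06 do not measure overall accessibility, and each change is relative to that level. The elongation values come from the table's elongation columns. The peak lists described last leave it unsettled whether the lists or these columns were exchanged between elongation and gastrula, and in the latter case every elongation value here would be a gastrula value. Across kept peaks, the elongation columns correlated with the mature larva columns at r = 0.948 to 0.954 and the gastrula columns at r = 0.925 to 0.931. Elongation and mature larva libraries were sequenced on the same platform and the competent larva libraries on another, per the study's methods. Stage and platform therefore cannot be told apart when the competent larva is compared with elongation or the mature larva. The gastrula libraries were split, 1 on each platform, and the methods do not say which replicate is which.

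More peaks opened than closed in the fit used here, and the median closing was larger in size than the median opening. Among peaks with a mean of at least 100 over the 4 libraries compared, the medians were closer in size, at -0.91 and 0.85 on the log2 scale. By limma on log2(value + 1) over all 8 libraries, 3662 peaks (5.92% of those tested) opened and 2835 (4.58%) closed, with no limit on size and p-values adjusted by Benjamini-Hochberg to a threshold of 0.05. In each of these peaks the values of the 2 elongation libraries lay outside those of the 2 mature larva libraries. The libraries also failed to overlap at many peaks that were not called, since 26.8% of all kept peaks were higher in both mature larva libraries and 31.4% were lower in both. The median opened peak rose by 0.86 on the log2 scale, or 1.82-fold, with quartiles of 0.70 and 1.08. The median closed peak changed by -1.07, or 2.10-fold, with quartiles of -1.63 and -0.81. A change of more than 1 on the log2 scale was reached by 1179 opened peaks (32.2%) and 1611 closed peaks (56.8%).

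The number of calls depended on single libraries and on the tool. Without elongation replicate 1 limma called 137 opened and 430 closed peaks, without elongation replicate 2 91 and 133, without mature larva replicate 2 218 and 186, and without mature larva replicate 1 none, where 4954 peaks were higher and 4379 lower at an unadjusted p under 0.05. Leaving out competent larva replicate 1 or 2, which enter only the estimate of the spread, gave 2084 or 2072 opened and 1531 or 1521 closed peaks. On reads recovered from the values, edgeR's quasi-likelihood test called 5774 opened and 3727 closed peaks, which included 3657 of the 3662 and 2645 of the 2835. Without mature larva replicate 1, edgeR called 2038 and 1007. Closed peaks outnumbered opened ones in limma without either elongation library and without the mean trend of the variance (784 opened, 831 closed). Leaving out a library could not turn the direction of a called peak, since in each the libraries compared do not overlap. The closed peaks that limma called without an elongation library were mostly not among the 2835, so those fits describe largely other peaks.

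**Figure D1:**
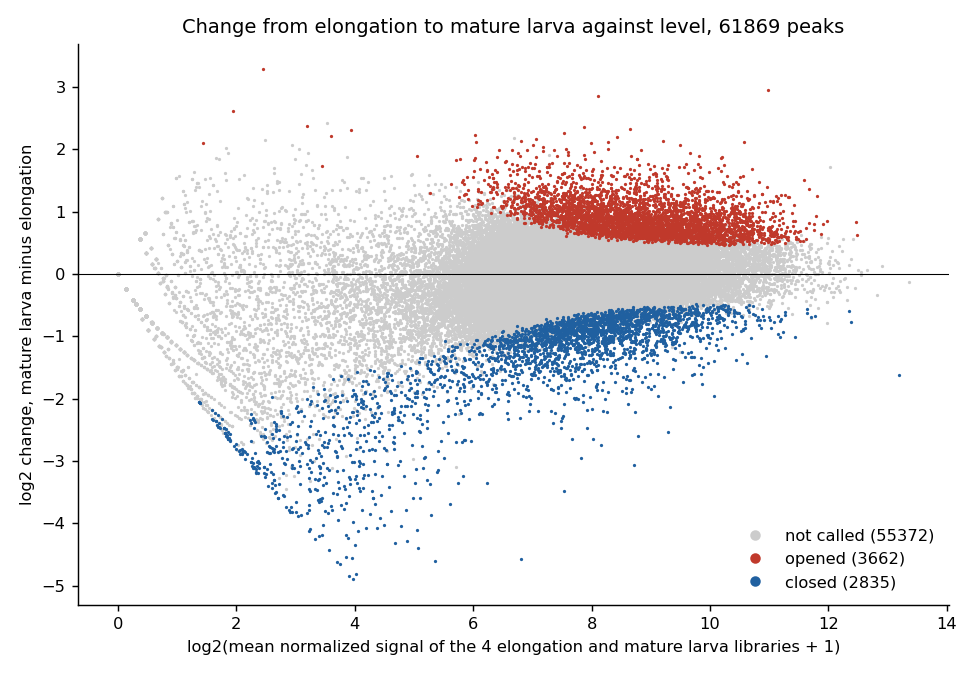
Log2 change from elongation to the mature larva (vertical axis) against the log2 mean normalized signal of the 4 libraries compared (horizontal axis), with 1 point per kept peak, coloured by call. Opened peaks (3662) lie almost only at high signal, whereas closed peaks (2835) extend down to the lowest signal, where their changes are largest.

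The largest openings were followed among peaks with a mean of at least 100 over the elongation and mature larva libraries. All 50 peaks named here lost the limma call without mature larva replicate 1, and 41 of them kept it in edgeR without that library. OFUS_peak_35585, 3822 bp at 15471501 to 15475322 on scaffold 10, held a normalized signal of 1021 and 189 at elongation and 2982 and 3929.8 in mature larvae. The mature larva stood 5.71-fold above elongation in the mean, although the elongation libraries differed strongly from each other, with a log2 change of 2.96 (SE 0.51, adjusted p = 0.00277). It held 422 and 433 in the gastrula and 496 and 964 in the competent larva, so that only the mature larva was high. OFUS_peak_7618, 1030 bp at 30638662 to 30639691 on scaffold 2, held 37.5 and 111 at elongation and 447 and 500.4 in mature larvae, with a log2 change of 2.85 (SE 0.35, adjusted p = 0.000451). Its signal of 441 and 416 in the competent larva lay just below the mature larva values, and the gastrula libraries, at 146 and 118, lay above elongation and far below both larvae. OFUS_peak_14030, 959 bp at 10217986 to 10218944 on scaffold 4, had close replicates, with 78.8 and 71.5 at elongation and 433 and 350.2 in mature larvae (log2 change 2.36, SE 0.23, adjusted p = 0.000104). It was as low in the gastrula, at 60.4 and 83.1, and higher still in the competent larva, at 621 and 582, where the difference from the mature larva did not pass the test (adjusted p = 0.0797). This peak was thus low at both early stages and high at both late stages.

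The other large openings showed different courses afterwards. OFUS_peak_1022, a narrow peak of 160 bp at 7339357 to 7339516 on scaffold 1, held 237 and 66.1 at elongation and 795 and 501 in mature larvae (log2 change 2.32, SE 0.42, adjusted p = 0.004). It fell to 113 and 96.0 in the competent larva, within the range of elongation, and that fall passed the test (log2 change -2.59, adjusted p = 0.00115). OFUS_peak_52830, of 147 bp at 5921976 to 5922122 on scaffold 19, held 61.0 and 63.8 at elongation and 360.4 and 256 in mature larvae (log2 change 2.27, SE 0.48, adjusted p = 0.00862). Its libraries disagreed in the gastrula, at 279 and 83.1, and in the competent larva, at 106 and 279, and at both stages they reached into the range of the mature larva. OFUS_peak_22047, of 975 bp at 12416987 to 12417961 on scaffold 6, held 108 and 139 at elongation and 626 and 508 in mature larvae (log2 change 2.19, SE 0.24, adjusted p = 0.000245). In the competent larva it was intermediate, at 288 and 384, above elongation (adjusted p = 0.00047) and below the mature larva (adjusted p = 0.0472).

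Under the same limit of a mean of at least 100, the 6 largest closings ran from -4.57 to -2.65 on the log2 scale, against 2.96 to 2.19 for the openings, and all 6 remained low in the competent larva. OFUS_peak_27871, 680 bp at 2327312 to 2327991 on scaffold 8, dropped from 223 and 206 at elongation to 8.97 and 7.21 in the mature larva, a 26.5-fold difference of means (log2 change -4.57, SE 0.56, adjusted p = 0.000428). The competent larva was as low, at 9.63 and 13.6, while the gastrula libraries, at 36.7 and 172, disagreed by several fold. OFUS_peak_39645, 1582 bp at 11073666 to 11075247 on scaffold 12, held 442 and 239 at elongation and 26.8 and 29.9 in mature larvae (log2 change -3.47, SE 0.31, adjusted p = 8.84e-05). Its gastrula values of 434 and 385 overlapped those of elongation, and its competent larva values of 55.2 and 42.6 stayed far below. OFUS_peak_20131, 645 bp at 25240676 to 25241320 on scaffold 5, held 851 and 647 at elongation and 93.3 and 83.4 in mature larvae (log2 change -3.06, SE 0.26, adjusted p = 7.56e-05). It was the most accessible of the 6 before closing, with 843 and 666 in the gastrula, and reached 43.1 and 74.3 in the competent larva.

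The 3 other peaks followed the same course at similar levels. OFUS_peak_6754, 782 bp at 23491249 to 23492030 on scaffold 2, held 574 and 225 at elongation and 29.7 and 70.4 in mature larvae (log2 change -2.95, SE 0.42, adjusted p = 0.000932). OFUS_peak_44733, 206 bp at 11193113 to 11193318 on scaffold 14, held 671 and 325 at elongation and 90.6 and 52.5 in mature larvae (log2 change -2.74, SE 0.37, adjusted p = 0.000729). OFUS_peak_44164, 431 bp at 6915750 to 6916180 on scaffold 14, held 410.1 and 290.1 at elongation and 59.5 and 49.0 in mature larvae (log2 change -2.65, SE 0.34, adjusted p = 0.000575). In all 3 the gastrula libraries were high, between 307 and 781, the competent larva libraries lay between 25.7 and 74.4, and the difference between mature and competent larva did not pass the test (adjusted p = 0.353, 0.107 and 0.935).

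**Figure D2:**
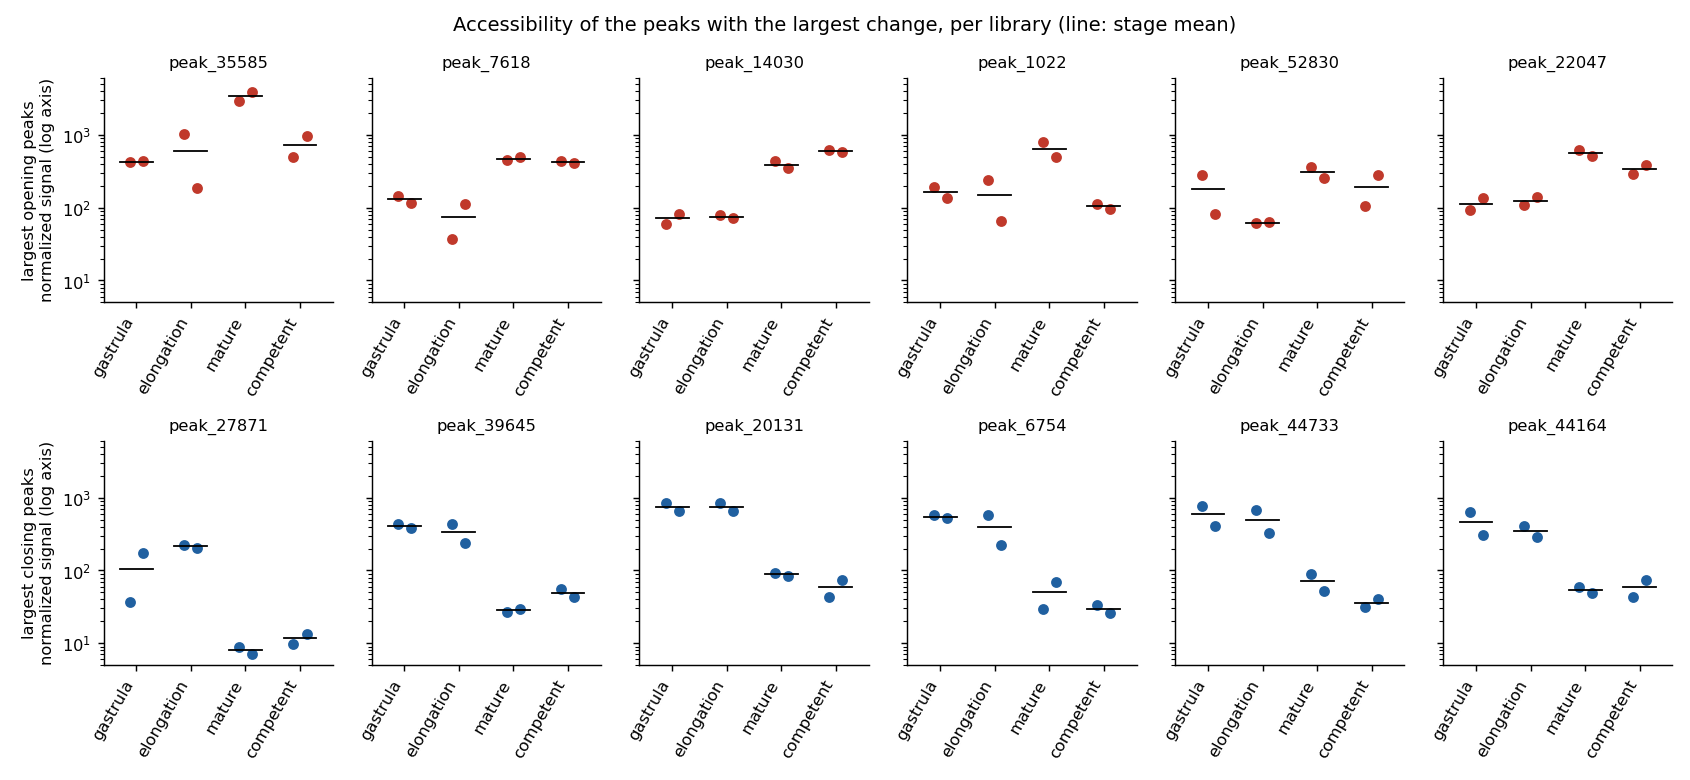
Normalized signal (vertical log axis) of the 6 peaks with the largest opening (top row) and the 6 with the largest closing (bottom row) in each library of the 4 stages, with points for libraries and lines for stage means. Among the opening peaks only the rise to the mature larva is common to all, whereas each closing peak stays low in the competent larva, as OFUS_peak_20131 does at 43.1 and 74.3.

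By level, opened peaks started above the typical peak and closed peaks fell to below it. The median opened peak held a signal of 320 at elongation and 586 in mature larvae, against 178 and 173 for all kept peaks. The median closed peak held 265 at elongation and 129 in the mature larva. Since a wide peak collects more reads, the levels were also set per kb of peak, which reversed the order of the sets at the start. Per kb, the median signal of opened peaks was 299 at elongation and 561 in the mature larva, and that of closed peaks was 502 and 249, against 328 and 322 for all kept peaks. Opened peaks thus went from slightly sparse to dense, and closed peaks from dense to sparse.

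Both sets resembled elongation in the gastrula, whose libraries enter the calls only through the spread and the mean trend of the fit. The median opened peak held 290.3 in the gastrula and the median closed peak 291. Both gastrula libraries lay below both mature larva libraries in 3521 opened peaks (96.1%, against 21.6% of all kept peaks), and above both in 2683 closed peaks (94.6%, against 43.8%). These shares rest on the mature larva libraries that also made the calls. From gastrula to elongation the median opened peak already differed by 0.11 on the log2 scale, and in 1385 opened peaks (37.8%) both gastrula libraries lay below both elongation libraries, against 13.4% of all kept peaks. The median closed peak differed by -0.09 between these stages, where the median of all kept peaks was -0.14.

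Opened and closed peaks differed in their signal. When all kept peaks were divided into 5 bins by their mean over the 8 libraries, 0.485% of the lowest bin and 16.4% of the highest opened. Closing varied less, from 2.72% to 5.93%, with the highest share in the lowest bin. This mean includes the libraries that made the calls, so a called peak moves its own bin. The median size of a called change fell from 2.26 in the lowest bin to 0.77 in the highest. Smaller changes were thus called at high signal, and the shares do not compare bins at an equal size of change. By gastrula signal, which is no part of the comparison, opening ran from 2.54% in the lowest of 5 bins to 9.35% in the highest. Closing was then highest in the top bin, at 7.85%, against 5.47% in the lowest and 1.83% in the second. Of the closed peaks, 186 (6.56%) held at most 20 in each of the 4 libraries compared, against 5 opened peaks (0.137%), and 124 were at 0 in both mature larva libraries. These low peaks changed by a median of -2.74 on the log2 scale, against -1.07 for all closed peaks. Among peaks with a mean of at least 100 over the 4 libraries, 3560 opened (7.73%) and 2019 closed (4.38%). There the median opening was 0.85 and the median closing -0.91.

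Opened peaks were wide in the fit used here, whereas closed peaks had the width of the typical peak. Median width was 1085 bp in opened peaks (quartiles 724 and 1515), 636 bp in closed peaks (364 and 1034) and 615 bp in all kept peaks (353 and 1019). After quantile normalization the medians were closer to each other, at 972 bp for opened and 872 bp for closed peaks, so the contrast depends on the scaling. The share of peaks that opened rose with width, from 1.14% among those of 103 to 310.0 bp, through 2.08%, 4.73% and 7.99%, to 13.7% among those of 1143 to 7146 bp. The share that closed stayed between 4.27% and 4.96% across the same 5 bins. The median log2 change of all peaks in a bin also rose with width, from -0.21 in the narrowest to 0.07 in the widest. The median size of a called change fell from 1.36 in the narrowest bin to 0.78 in the widest, so smaller changes were called in wide peaks. With an absolute log2 change above 1 required as well, the median width was 820 bp for opened and 505 bp for closed peaks. Of 892 peaks of at least 2500 bp, 151 (16.9%) opened and 40 (4.48%) closed.

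The median signal over the 8 libraries rose from 91.9 in the narrowest bin to 557 in the widest. Width was therefore also followed within 5 bins of gastrula signal, which is no part of the difference between elongation and the mature larva. At a given gastrula signal a narrower peak holds more signal per kb, so these bins do not tell width from density. Consensus peaks were also merged from calls at several stages, the mature larva included, so width is not independent of its signal. In the middle bin (a mean gastrula signal of 162 to 249.8), opening rose from 0.732% of the narrowest peaks to 27.1% of the widest. In the highest bin (above 423), it rose from 1.86% in the third width bin to 12.0% in the widest, while in the lowest bin it stayed at or under 4.38%. Closing showed the opposite relation at high signal. In the highest bin, 24 of 64 of the narrowest peaks (37.5%) and 74 of 168 of the next bin (44.0%) closed, and only 379 of 8402 of the widest (4.51%). In the lowest bin closing rose with width, from 3.71% to 12.2%. The flat share of closing over all peaks thus combined opposite relations at high and at low gastrula signal.

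**Figure D3:**
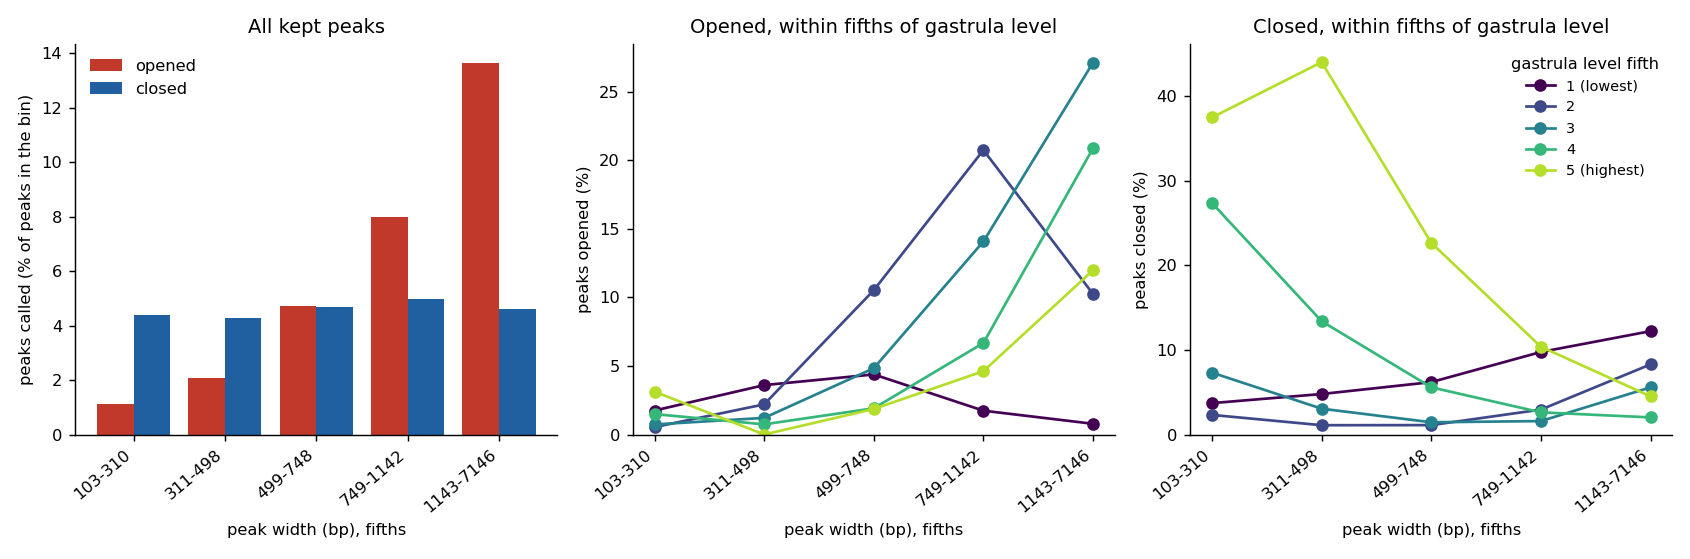
Share of peaks called (vertical axes, %) by peak width (horizontal axes, 5 bins of about equal size), for all kept peaks (left) and within 5 bins of gastrula signal (middle, opened; right, closed). Opening rises to 13.7% in the widest bin while closing stays below 5%, and at the highest gastrula signal closing reaches 44.0% among narrow peaks.

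The widest called peaks held far more signal than the median peak. OFUS_peak_38707, 5261 bp at 4560840 to 4566100 on scaffold 12, was the widest opened peak and held 4598 and 3574 at elongation and 7708 and 6720.2 in mature larvae (log2 change 0.83, SE 0.18, adjusted p = 0.0101). It rose at each stage with no overlap between libraries, from 2476 and 2788 in the gastrula to 12111 and 10797 in the competent larva. OFUS_peak_10263, 4509 bp at 11433705 to 11438213 on scaffold 3, was the widest closed peak and held 6811 and 5755 at elongation and 4362 and 3909 in mature larvae (log2 change -0.60, SE 0.18, adjusted p = 0.0474). Its competent larva values, 4037 and 3825, overlapped those of the mature larva (adjusted p = 0.844).

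Peaks that moved the same way lay near each other along the scaffolds. The nearest other kept peak had also opened for 556 of 3662 opened peaks (15.2%, 95% Wilson interval 14.1 to 16.4%, which covers counting error only), where 5.92% of all kept peaks opened. It had closed for 94 (2.57%), where 4.58% of all kept peaks closed. Of the closed peaks, 417 of 2835 (14.7%, interval 13.5 to 16.1%) had a closed nearest peak, and 91 (3.21%) an opened nearest peak. Like calls were thus 2.57 and 3.21 times as frequent beside opened and closed peaks as among all peaks, and unlike calls were 0.560 and 0.542 times as frequent. Across all kept peaks, the log2 changes of nearest neighbours correlated with r = 0.207, a description over 61869 peaks that share libraries and regions.

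Adjacent peaks can be parts of a single broad region, so gaps were considered. Looking past peaks closer than 1 kb, the nearest peak had also opened for 13.4% of opened peaks and had also closed for 13.5% of closed peaks. By gap, the share fell from 20.5% at under 500 bp to 8.93% between 5 and 10 kb for opened peaks, and from 21.1% to 6.57% for closed peaks. Between 10 and 20 kb it was 9.70% for opened peaks (interval 5.76 to 15.9%), where 4.62% of all kept peaks at such gaps had opened, and 4.13% for closed peaks (1.78 to 9.31%), where 4.17% had closed. Above 20 kb it was 12.5% (5 of 40 opened peaks, interval 5.46 to 26.1%) and 8.51% (4 of 47 closed peaks, 3.36 to 19.9%), where 4.80% and 5.64% of all kept peaks had opened and closed. The intervals of opened and closed peaks overlapped at both gaps, and their difference was not tested. The closed peaks that limma called without an elongation library were mostly others than those described above. In fits that leave out a library the share of like nearest peaks fell with the number of calls. It was 0 of 91 opened peaks without elongation replicate 2, 0.730% without elongation replicate 1 and 3.21% without mature larva replicate 2, where 0.147%, 0.221% and 0.352% of peaks were called opened, and without mature larva replicate 1 it could not be given. For closed peaks it was 6.28%, 3.01% and 3.76% without elongation replicate 1, elongation replicate 2 and mature larva replicate 2, against 0.695%, 0.215% and 0.301% called. With edgeR and mature larva replicate 1 left out it was 9.03% for opened peaks, where 3.29% were called, and with mature larva replicate 2 left out it was 8.79% for closed peaks, where 1.73% were called.

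Chaining called peaks at gaps of at most 10 kb gave 141 clusters of 3 or more opened peaks with 472 members (12.9% of opened peaks), and 91 clusters of closed peaks with 334 members (11.8%). The 5 clusters with the most opened peaks held no closed peak, and the 5 with the most closed peaks held no opened peak. These clusters were picked for like calls and held few other kept peaks, at most 5 each. With 4.58% of all kept peaks closed and 5.92% opened, none among so few is unremarkable, and no conclusion is drawn. The opened cluster with the most members spanned 27.2 kb on scaffold 31 (2711269 to 2738495), where 7 of 9 kept peaks opened. Its members held a median signal of 416 and 459 at elongation, 1120.0 and 1050 in mature larvae, and 1619.9 and 1630.2 in competent larvae. All 7 kept at least 0.5 of their change in the competent larva, and of the 2 other peaks in the span 1 had a change of the same sign.

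Within that cluster the peaks differed in level and in how far they went on. OFUS_peak_62611, 1439 bp at 2731698 to 2733136 on scaffold 31, was the most accessible of the 6 with the largest change, with 1420.4 and 1238 at elongation and 3219 and 2695 in mature larvae (log2 change 1.15, SE 0.16, adjusted p = 0.000789). OFUS_peak_62612, 809 bp at 2733983 to 2734791 on scaffold 31, had the largest change, with 416 and 511 at elongation and 1179 and 1111 in mature larvae (log2 change 1.31, SE 0.15, adjusted p = 0.000314). In the competent larva it reached 3258 and 3060.4, a further log2 change of 1.46 (adjusted p = 4.62e-05), so that its rise after the mature larva exceeded the rise before it. OFUS_peak_62609, 692 bp at 2724560 to 2725251 on scaffold 31, held 199.9 and 216 at elongation and 477 and 398 in mature larvae (log2 change 1.06, SE 0.19, adjusted p = 0.00314) and was the only 1 of the 6 whose competent larva values, 386 and 316, lay below the mature larva, a difference that did not pass the test (adjusted p = 0.281). OFUS_peak_62606, OFUS_peak_62607 and OFUS_peak_62610 changed by 1.28, 1.03 and 0.96 on the log2 scale.

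The next opened cluster lay on scaffold 9 (9416809 to 9451151, 34.3 kb), where 7 of 12 kept peaks opened and the 5 others had changes of the same sign. OFUS_peak_32299, 582 bp at 9424708 to 9425289 on scaffold 9, changed most, with 61.9 and 124 at elongation and 277 and 261 in mature larvae (log2 change 1.61, SE 0.31, adjusted p = 0.00549). OFUS_peak_32297, 1066 bp at 9417925 to 9418990 on scaffold 9, held 137 and 181 at elongation and 314 and 343 in mature larvae (log2 change 1.06, SE 0.20, adjusted p = 0.00454). It then rose to 1120.2 and 1131 in the competent larva (log2 change 1.77, adjusted p = 8.41e-05). OFUS_peak_32301, OFUS_peak_32296, OFUS_peak_32304 and OFUS_peak_32307 changed by 1.55, 1.17, 0.99 and 0.87 on the log2 scale. All 7 members kept at least 0.5 of their change in the competent larva.

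Closed clusters were as compact. On scaffold 6 (4151757 to 4181695, 29.9 kb) 8 of 11 kept peaks closed and the 3 others had changes of the same sign. The members held a median of 1014 and 900.1 at elongation, 620.2 and 581 in mature larvae, and 431 and 389 in competent larvae. OFUS_peak_20872, 526 bp at 4151757 to 4152282 on scaffold 6, changed most, with 556 and 463 at elongation and 209 and 191 in mature larvae (log2 change -1.34, SE 0.20, adjusted p = 0.00122). OFUS_peak_20875, 1091 bp at 4159700 to 4160790 on scaffold 6, held 1760.1 and 1308 at elongation and 886 and 842 in mature larvae (log2 change -0.81, SE 0.18, adjusted p = 0.0119), and fell again to 399 and 452 in the competent larva (log2 change -1.02, adjusted p = 0.002). OFUS_peak_20877, OFUS_peak_20880, OFUS_peak_20878 and OFUS_peak_20882 changed by -1.08, -0.94, -0.86 and -0.67, so that its changes were modest in size and spread over the whole span. On scaffold 8 (3288821 to 3313680, 24.9 kb) 8 of 12 kept peaks closed and the 4 others had the same sign. OFUS_peak_28018, 3026 bp at 3297209 to 3300234 on scaffold 8, was by far its most accessible peak, with 7340.2 and 6176 at elongation and 4025 and 3848 in mature larvae (log2 change -0.77, SE 0.18, adjusted p = 0.0146). OFUS_peak_28026, 286 bp at 3313395 to 3313680 on scaffold 8, changed most there, with 479 and 369 at elongation and 190.1 and 162 in mature larvae (log2 change -1.25, SE 0.23, adjusted p = 0.00368). OFUS_peak_28015, OFUS_peak_28019, OFUS_peak_28016 and OFUS_peak_28024 changed by -0.97, -0.87, -0.76 and -0.71 on the log2 scale.

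**Figure D4:**
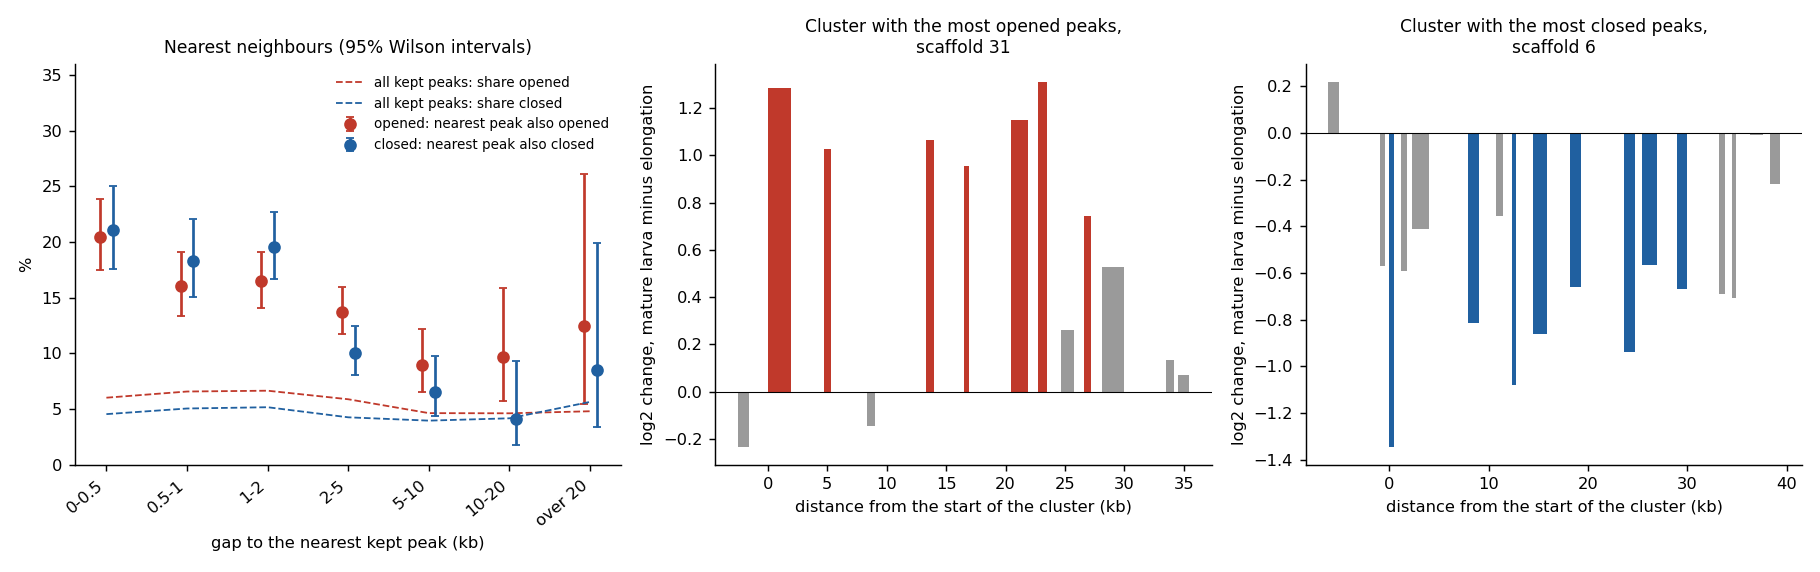
Left, share of opened and closed peaks whose nearest kept peak moved the same way (points with 95% Wilson intervals, %) by the gap to it (kb), with dashed lines for the share of all kept peaks at that gap that opened or closed. Middle and right, log2 change of each kept peak (bars as wide as the peak, grey where not called) by distance in kb along the clusters on scaffold 31, with 7 opened peaks, and scaffold 6, with 8 closed peaks.

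Neither direction was confined to some scaffolds. Among the 20 scaffolds with at least 1000 kept peaks, the share that opened ranged from 5.09% on scaffold 11 to 7.83% on scaffold 16, and the share that closed from 2.73% on scaffold 12 to 5.83% on scaffold 2. Opened peaks outnumbered closed peaks on 19 of the 20.

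Most of the change at called peaks was still present in the competent larva, but for closed peaks the share was near that of all peaks that fell. For each called peak, the kept share is the change from elongation to the competent larva divided by that from elongation to the mature larva, on the log2 scale. It was at least 0.5 for 2837 opened peaks (77.5% ± 2.16, SD between replicates 1 and 2 taken alone, n = 2) and 2136 closed peaks (75.3% ± 5.74). Among all kept peaks with a mature larva above elongation this share was 52.8%, and among those below 71.1%. Opened peaks thus stood further from their background than closed peaks, whose share lay within its SD of 71.1%. The median change of all kept peaks from elongation to the competent larva was -0.17 on the log2 scale. The median kept share was 0.943 for opened and 0.954 for closed peaks. Only 212 opened peaks (5.79%) and 147 closed peaks (5.19%) were back at or past their elongation level, against 35.8% and 18.1% of all kept peaks of the same sign. The elongation libraries enter both differences, which ties the kept share to the calls.

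By test, 2569 opened peaks (70.2%) were higher in the competent larva than at elongation, where 14% of all kept peaks were, and 24 were lower. Of the closed peaks, 1867 (65.9%) were lower, where 16% of all kept peaks were, and 12 were higher. From the mature to the competent larva, 590 opened peaks (16.1%) rose further, where 7.99% of all kept peaks rose, and 503 (13.7%) fell, where 7.33% fell. The opened peaks that rose further went from a median of 225 at elongation through 413 to 844, and those that fell went from 370 through 674 to 387. Of the closed peaks, 329 (11.6%) fell further and 404 (14.3%) rose again. Those that fell further were accessible peaks, with medians of 676, 366 and 191. Those that rose again were low peaks that were nearly empty only in the mature larva, with medians of 45.8, 7.08 and 37.6. Fits that leave out a library do not follow the same set, since the closed peaks that limma called without an elongation library were mostly others. The counts of peaks called both from elongation to the mature larva and to the competent larva depended on the libraries. They were 0 without mature larva replicate 1, where no peak was called at all. Without elongation replicate 1, elongation replicate 2 or mature larva replicate 2 they were 120.0, 77 and 205 opened and 410.0, 126 and 121 closed peaks, which was 84.6% to 94.0% and 65.1% to 95.3% of the peaks called opened and closed. Without competent larva replicate 1 they were 1210 (58.1%) and 957 (62.5%), and without replicate 2 1340 (64.7%) and 942 (61.9%). With edgeR and mature larva replicate 1 or 2 left out, 818 and 748 closed peaks were called in both comparisons, and with elongation replicate 2 left out 3970 opened peaks.

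The difference between gastrula and competent larva has no library in common with the calls, although the fit shares its estimate of the spread, and it was chosen after the other results were known. Platform was partly tied to stage in this comparison too, since the competent larva libraries shared a platform with only 1 gastrula library. Between these stages the median opened peak was higher by 1.04 on the log2 scale (quartiles 0.51 and 1.59), the median closed peak changed by -1.10 (quartiles -1.62 and -0.61) and the median of all kept peaks was -0.32. By limma 2761 opened peaks (75.4%) were higher in the competent larva, where 15.7% of all kept peaks were, and 41 were lower. Of the closed peaks, 1898 (66.9%) were lower, where 29.6% of all kept peaks were, and 33 were higher. Both competent larva libraries lay above both gastrula libraries in 85.0% of opened peaks, against 22.5% of all kept peaks, and below both in 79.6% of closed peaks, against 47.6%.

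Among closed peaks, the share that kept the change differed with level. In the lowest of the 5 bins of gastrula signal 39.3% of closed peaks kept at least 0.5 of their change, and in the highest 92.5%, whereas the share of opened peaks went from 81.5% to 74.2%. Of the 513 closed peaks with a change of at least 2 on the log2 scale, 36.8% kept 0.5 of it, and 365 of these 513 had a mean under 20 over the 4 libraries, with a median of 2.11 in mature larvae and 10.5 in competent larvae. Among closed peaks with a change of 1 to 1.5 the share was 85.4%. The share over all kept peaks of the same sign was not taken within bins of level or size. These differences are therefore not read as particular to called peaks.

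**Figure D5:**
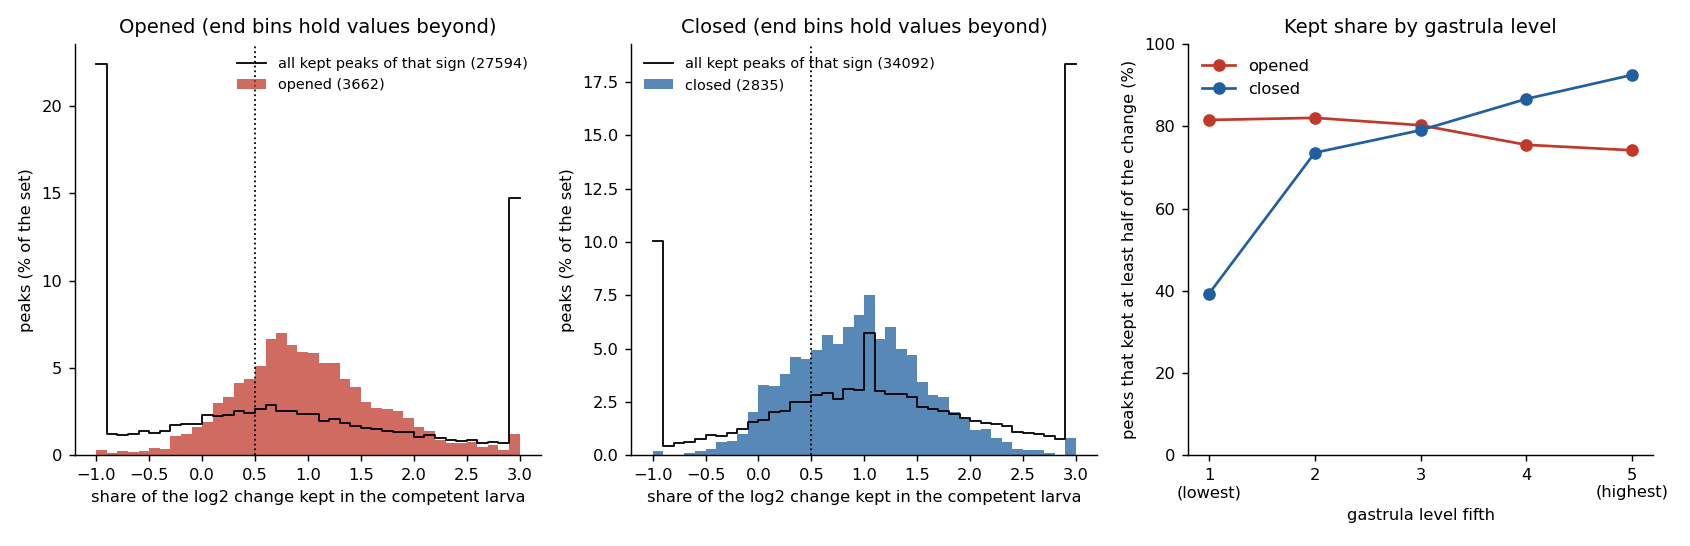
Share of the log2 change from elongation to mature larva that was kept in the competent larva (horizontal axes) for opened peaks (left) and closed peaks (middle), as % of each set, with all kept peaks of the same sign as a line and a dotted line at 0.5. On the right, the % of called peaks that kept at least 0.5, by bins of gastrula signal, falls from 81.5% to 74.2% for opened peaks and rises from 39.3% to 92.5% for closed peaks. The right panel shows called peaks only, without all kept peaks beside them.

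Single peaks differed widely in their course after the mature larva. Among opened peaks with a change of at least 1, OFUS_peak_17786, 1542 bp at 9343306 to 9344847 on scaffold 5, kept the largest share, and went from 204 and 277 at elongation through 476 and 487 to 1987 and 1501. Its change by the mature larva (log2 change 1.01, SE 0.25, adjusted p = 0.0194) was the smaller part of the rise. OFUS_peak_59783, 1433 bp at 5710455 to 5711887 on scaffold 26, went from 145 and 168 through 358 and 376 to 1676 and 1512. OFUS_peak_33530, 525 bp at 17388274 to 17388798 on scaffold 9, went from 51.6 and 74.3 through 132 and 146 to 641 and 474. In each of these 3 peaks the libraries did not overlap between these stages, and the rise continued after the mature larva.

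At the other end were peaks with their highest signal in the mature larva. OFUS_peak_3254, 169 bp at 26948070 to 26948238 on scaffold 1, held 213 and 125 at elongation and 818 and 458 in mature larvae (SE 0.36 on the log2 scale, adjusted p = 0.00466). It then fell to 40.8 and 52.8 in the competent larva, below elongation (log2 change -1.80, adjusted p = 0.00159). OFUS_peak_15895, 750 bp at 24081757 to 24082506 on scaffold 4, held 183 and 164 at elongation and 376 and 339 in mature larvae and 91.2 and 135 in the competent larva. OFUS_peak_8615, 343 bp at 980345 to 980687 on scaffold 3, held 143 and 87.6 at elongation and 222 and 232 in mature larvae and 88.8 and 60.2 in the competent larva. In these last 2 peaks the fall from the mature larva passed the test (adjusted p = 0.000394 and 0.00237), and the difference from elongation did not (adjusted p = 0.0523 and 0.14).

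Closed peaks showed the mirror image. OFUS_peak_28258, 470 bp at 5049310 to 5049779 on scaffold 8, held 569 and 588 at elongation and 267 and 228 in mature larvae (log2 change -1.23, SE 0.27, adjusted p = 0.0114) and fell on to 23.9 and 41.2 in the competent larva. OFUS_peak_10547, 832 bp at 13180108 to 13180939 on scaffold 3, held 1443 and 984 at elongation and 646 and 524 in mature larvae and then 134 and 127. OFUS_peak_47101, 643 bp at 12671966 to 12672608 on scaffold 15, held 366 and 476 at elongation and 193 and 180.0 in mature larvae and then 31.1 and 78.3. All 3 lost more signal, on the log2 scale, after the mature larva than before it. OFUS_peak_26409, 486 bp at 16373347 to 16373832 on scaffold 7, held 146 and 226 at elongation and 86.3 and 81.3 in mature larvae (log2 change -1.11, SE 0.24, adjusted p = 0.0108) and rose to 329 and 425 in the competent larva, above elongation (adjusted p = 0.00496). OFUS_peak_36086, 676 bp at 1867900 to 1868575 on scaffold 11, held 261 and 133 at elongation and 87.9 and 82.6 in mature larvae and then 334 and 237. OFUS_peak_37117, 1342 bp at 11673887 to 11675228 on scaffold 11, held 162 and 167 at elongation and 77.4 and 85.0 in mature larvae and then 197 and 256. In these last 3 peaks only the mature larva was low, since both gastrula libraries lay above both mature larva libraries as well.

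The peak lists that were called on single libraries gave another reading of the same libraries and are no independent support. Opened and closed peaks were chosen by their mature larva values, so their shares in the mature larva lists were largely set by that choice. Of the opened peaks, 3169 (86.5%) overlapped a peak in both mature larva lists, against 38.8% of all kept peaks, and 2985 (81.5%) in both competent larva lists, against 33.5%. Of the closed peaks, 1496 (52.8%) overlapped none in either mature larva list, against 43.7% of all kept peaks, and 643 (22.7%) were in both competent larva lists. The lists linked to the elongation samples carry the gastrula in their names and the reverse. Over the 23077 kept peaks in all 4 of these lists, the log2 fold enrichment of elongation-linked over gastrula-linked lists ran against the difference between elongation and gastrula in the table (r = -0.507), so each list was given only by its link and no stage was read from it. Taken by the names they carry instead of their links, the lists ran with the table's columns. Either the lists or the table's columns could be the exchanged side, and which of them was exchanged was not tested. Neither elongation-linked list overlapped 1710 opened peaks (46.7%, against 29.4% of all kept peaks), and neither gastrula-linked list overlapped 690 (18.8%, against 7.37%). A total of 1740 closed peaks (61.4%) were in both elongation-linked lists, against 39.5% of all kept peaks, and 2735 (96.5%) in both gastrula-linked lists, against 81.7%.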

How the data were processed

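For the deposited files the authors mapped trimmed ATAC-seq reads with NextGenMap, removed duplicates, corrected read positions for how Tn5 cuts, called peaks per library with MACS2 2.2.7.1, kept those that replicated, removed those in repeats and merged them with DiffBind. The deposited table holds, per consensus peak, a signal normalized between libraries with DESeq2. The deposited peak lists give the fold enrichment over the local background (a ratio) and the −log10 q-value per peak, and overlaps of at least 1 bp were taken with bedtools 2.31.1.

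Groups follow the sample labels. Limma 3.58.1 in R 4.3.3 was fitted to log2(value + 1) of the 61869 kept peaks in all 8 libraries, by stage, with a mean trend, and p-values were Benjamini-Hochberg adjusted over all of them. Fold changes on this scale understate the change of low peaks. For edgeR 4.0.16 and DESeq2 1.42.0, used as alternatives, reads were recovered by fitting the value of 1 read per library and level, which made 70.4% to 92.2% of values above 0 whole within 0.1 read (20% by chance), so some counts are approximate. Scripts were tested on simulated data. Another 2 accessibility columns, which belong to no sample given here, and the expression table were not used.

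Peaks were named by rule, with a mean of at least 100 and libraries that do not overlap: the 6 largest openings and closings, the 3 highest and 3 lowest kept shares per direction with a change of at least 1, and the widest. Up to 6 peaks were named in each of the 2 clusters with the most opened or closed peaks. The peaks described and the rules were chosen with earlier results of these data known.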

Additional observations from a re-analysis of the deposited data

How the results depend on the processing

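The direction of the 50 named peaks was largely set by their choice, since their libraries do not overlap, and is not given as a sign of stability. With no mean trend, 784 opened and 831 closed peaks were called, 628 and 592 also against the competent larva. Of the opened and closed peaks 83.9% and 72.9% kept 0.5 of the change, 5.99% and 6.74% had a like nearest peak, and median widths were 1004 and 516 bp. With peaks at 0 in all libraries kept, 1102 opened and 631 closed peaks were called, 864 and 513 also against the competent larva. Of the opened and closed peaks 78.4% and 82.1% kept 0.5 of the change, 6.62% and 4.91% had a like nearest peak, and median widths were 1201.5 and 672 bp. After quantile normalization, 2311 opened and 1753 closed peaks were called, 1714 and 1395 also against the competent larva. Of the opened and closed peaks 81.0% and 84.9% kept 0.5 of the change, 11.3% and 13.5% had a like nearest peak, and median widths were 972 and 872 bp. With an absolute log2 change above 1 required as well, 1179 opened and 1611 closed peaks were called, 945 and 927 also against the competent larva. Of the opened and closed peaks 83.6% and 67.3% kept 0.5 of the change, 8.57% and 10.9% had a like nearest peak, and median widths were 820 and 505 bp. By edgeR, 5774 opened and 3727 closed peaks were called, 4209 and 2299 also against the competent larva. Of the opened and closed peaks 73.5% and 77.2% kept 0.5 of the change, 18.7% and 16.9% had a like nearest peak, and median widths were 1006 and 592 bp. DESeq2 called 5095 and 2781, with 74.98% of opened peaks keeping 0.5 and 17.7% with a like nearest peak. A minimum mean of 50 gave 16.8% with a like nearest peak and a width of 1050 bp for opened peaks, and 84.1% of closed peaks keeping 0.5. Fitting only the stages compared gave 12.7% of opened peaks with a like nearest peak, and looking past 1 kb gave 13.4%. With a limit of 0.25 on the kept share, 87.5% and 86.4% passed, and with 0.75 62.4% and 61.8%. Clusters of 3 or more numbered 62 opened and 55 closed at a gap of 5 kb, and 259 and 166 at 25 kb. The cause of these differences was not tested.

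Leaving out each library in turn, in limma and (elongation and mature larva only) edgeR, gave 0 to 5107 opened and 0 to 2879 closed peaks, and 0 to 3970 and 0 to 2034 also called against the competent larva. A kept share of 0.5 was reached by 76.6 to 89.0% and 60.8 to 94.0%, a like nearest peak by 0 to 18.2% and 3.01 to 14.5%, and median widths were 999 to 1338 and 474 to 700.5 bp. The fits without a gastrula library and those by edgeR without a library were chosen after seeing the data. Where limma had a lone elongation or mature larva library, that library was assumed to vary like the other stages. With a lone elongation library most closed peaks called were not closed in the main fit, so those shares and widths describe largely other peaks.

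With the replicate number as a replicate block, 4695 opened and 3824 closed peaks were called, including all 3662 and 2835, and 17.5% and 16.7% had a like nearest peak. Whether ATAC-seq libraries with the same number share an origin is not stated. Differences between replicates correlated with r = 0.116 between elongation and mature larva, and with r = -0.0033 to 0.241 over all pairs of stages.

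With 2 libraries a stage, calls rest on a spread pooled over stages. Depth differed 5.52-fold between libraries, and the closed peaks of lowest signal rest on few reads, so the size of their change is uncertain.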
